A study of Mus musculus with 24 samples.

Results

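Calcium channel pore subunits are the proteins that form the calcium-conducting pore of voltage-gated calcium channels, and 8 of the genes that encode them are described here across 4 kinds of sorted cortical neuron. The 8 genes were taken by name: Cacna1a, Cacna1b, Cacna1c, Cacna1d, Cacna1e, Cacna1g, Cacna1h and Cacna1i. They are 8 of the 36528 genes listed per library, and all 8 passed the filter on low counts that left 14890 genes for testing.

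The study sorted fluorescent neurons from adult mouse cortex, with papain used to dissociate the tissue, and sequenced their RNA in bulk. The labels name 4 subtypes without expanding the names, and each of them (EXC, PV, SST, VIP) has 6 of the 24 libraries. Male and female mice gave 4 and 2 libraries of EXC, 4 and 2 of SST, 3 and 3 of PV, and 2 and 4 of VIP. All sorted cells carried a GFP or tdTomato reporter and excluded the dye DAPI. The labels used here give no treatment, no strain, no age beyond adult, no promoter behind the reporters and no number of animals per library, so the p-values refer to the spread among these libraries, which may be technical.

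A pore subunit is 1 long protein with 4 repeats. Each repeat holds a voltage sensor and a pore loop, and the 4 loops together line the pore and select calcium. The family falls into 3 branches. The Cav1 genes (Cacna1c for Cav1.2 and Cacna1d for Cav1.3) encode L-type channels, which lie largely on cell bodies and dendrites and couple activity to gene transcription. The Cav2 genes (Cacna1a for Cav2.1, Cacna1b for Cav2.2 and Cacna1e for Cav2.3) encode the P/Q-, N- and R-type channels, of which the P/Q and N types are the main triggers of transmitter release at nerve terminals. The Cav3 genes (Cacna1g for Cav3.1, Cacna1h for Cav3.2 and Cacna1i for Cav3.3) encode T-type channels, which open near the resting potential and promote rebound firing and bursts. Cav1 and Cav2 channels mostly open at stronger depolarisation, to a degree that differs between members, and assemble with an alpha2-delta and a beta subunit.

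The branches can be seen in the coding sequence of the pore loop of repeat III. The stretches below, of 39 bases each, were read 5′ to 3′ on the coding strand from the GENCODE M21 transcript with the longest complete coding sequence of each gene (GRCm38). They are shown because they mark the branch of each member. Capitals mark the codon of the acidic residue of the calcium selectivity filter.
Cacna1a: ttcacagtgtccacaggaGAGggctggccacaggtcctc
Cacna1b: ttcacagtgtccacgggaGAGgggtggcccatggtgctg
Cacna1e: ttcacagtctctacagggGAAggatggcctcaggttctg
Cacna1c: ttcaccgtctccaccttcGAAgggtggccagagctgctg
Cacna1d: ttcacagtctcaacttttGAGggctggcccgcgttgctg
Cacna1g: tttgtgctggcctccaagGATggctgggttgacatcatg
Cacna1h: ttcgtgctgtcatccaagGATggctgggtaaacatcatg
Cacna1i: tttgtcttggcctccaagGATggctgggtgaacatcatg
The marked codon encodes glutamate in the 5 Cav1 and Cav2 genes and aspartate in the 3 Cav3 genes. It lies in exon 27 of Cacna1a (chr8:84581338-84581340), exon 28 of Cacna1b (chr2:24651092-24651094), exon 29 of Cacna1e (chr1:154444883-154444885), exon 27 of Cacna1c (chr6:118656124-118656126) and exon 27 of Cacna1d (chr14:30100708-30100710). In Cacna1g (chr11:94426471-94426473), Cacna1h (chr17:25383508-25383510) and Cacna1i (chr15:80376807-80376809) it lies in exon 24. Cacna1a and Cacna1i lie on the plus strand and the others on the minus strand. Over all 4 repeats, the 5 Cav1 and Cav2 genes had a glutamate codon at this place in each repeat, and the 3 Cav3 genes had glutamate in repeats I and II and aspartate in repeats III and IV. The translated coding sequences of Cacna1c and Cacna1d were identical at 70.3% of aligned residues. Within Cav2 the share was 61.9% to 66.1%, and within Cav3 59.5% to 63.4%. Between Cav1 and Cav2 it was 44.4% to 46.0%, and the Cav3 genes matched the other branches at 30.2% to 33.7% of residues.

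Library totals ran from 1548907 to 15978459 counted reads, with a median of 6012251.5, and were lowest in PV (1548907 to 4653119). Genes of the mitochondrial genome held 14.4% to 52.9% of the reads in PV and at most 16.6% elsewhere. Each sort had its own marker: Pvalb was at 178 to 232 in PV, Sst at 701 to 1422 in SST, Vip at 1634 to 1776 in VIP and Slc17a7 at 162 to 820 in EXC (all in normalised CPM). Other cell types left traces that move with the subtypes. The summed level of 6 dentate granule cell markers was 1161 to 1653 CPM in EXC, where C1ql2 was at 37.4 to 82.1 CPM and at most 0.419 elsewhere. VIP had 1077 to 1171 CPM of Prox1 from this list, and the other 5 markers averaged at most 0.585 there. Striatal markers summed to 248 to 911 CPM in SST against at most 82.6 elsewhere, and ependymal markers to 37.8 to 145 in PV against at most 6.81. Of the oligodendrocyte precursor markers VIP had Pdgfra at 12.7 to 19.6 CPM, with Olig1 and Olig2 at averages of 0.631 and 0.231, and the highest sum of that list was 40.4 CPM in EXC replicate 6. EXC replicate 3 stood apart, with the lowest excitatory marker sum of its group (1818 CPM, against 3594 to 5066) and the highest sum of GABAergic markers (887 against 350 to 697). Oligodendrocyte markers summed to 3016 and 3163 CPM in EXC replicates 2 and 6, against 85.2 to 864 in the other EXC libraries and at most 754 elsewhere. EXC replicate 6 also had the highest astrocyte sum of all libraries, at 4259 CPM. The part of these in the levels given here was not tested. In bulk libraries, fewer cells of a type and less RNA per cell cannot be told apart. Of the 4 sequencing pools in the labels, POOL6188 holds every PV library and all EXC libraries but replicate 3. That library was sequenced in POOL7099 with VIP replicates 2, 4, 5 and 6. POOL7098 holds the remaining VIP libraries and all SST libraries but replicate 5, which is alone in POOL7100.

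Every member differed between some subtypes, and the most even of them, Cacna1i, was called only in the 3 pairs with VIP. Of these calls, VIP against EXC and PV against VIP were lost with the pool in the model. Of the 48 tests of 8 genes in 6 pairs of subtypes, 38 passed an adjusted p of 0.05 in edgeR's quasi-likelihood test, adjusted over all genes tested. In the same pairs, 11.4% to 21.9% of all genes tested were called higher and 14.9% to 26.7% lower. Cacna1e and Cacna1h passed in all 6 pairs, Cacna1b, Cacna1c and Cacna1g in 5, Cacna1a and Cacna1d in 4 and Cacna1i in 3. The libraries of the subtypes compared did not overlap in 32 of the 48 cases. These were 5 members in PV against EXC (23.2% of all genes tested), 4 in SST against EXC (18.3%), 4 in VIP against EXC (17.4%), 6 in PV against SST (20.8%), 7 in PV against VIP (27.7%) and 6 in SST against VIP (21%). Log2 fold changes below give the first-named subtype over the second, with the standard error (SE).

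PV against EXC gave 1 member higher and 6 lower, where 20.3% of all genes tested were called higher and 25.6% lower. The median change of the members was -1.10 against -0.12 for all genes. SST against EXC gave 0 higher and 4 lower, beside 17.1% and 21.3% of all genes (medians -0.73 and -0.06), and 0 were higher at an unadjusted p under 0.05 or by DESeq2. VIP against EXC gave 2 higher and 5 lower, beside 18.4% and 20.7% (medians -0.81 and 0.01). PV against SST gave 1 higher and 5 lower, beside 11.4% and 14.9% (medians -0.90 and -0.03). PV against VIP gave 2 higher and 6 lower, beside 21.9% and 26.7% (medians -1.11 and -0.09). SST against VIP gave 2 higher and 4 lower, beside 14.6% and 16.7% (medians -0.20 and 0.00). Comparisons that share a subtype share its libraries.

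**Figure D1:**
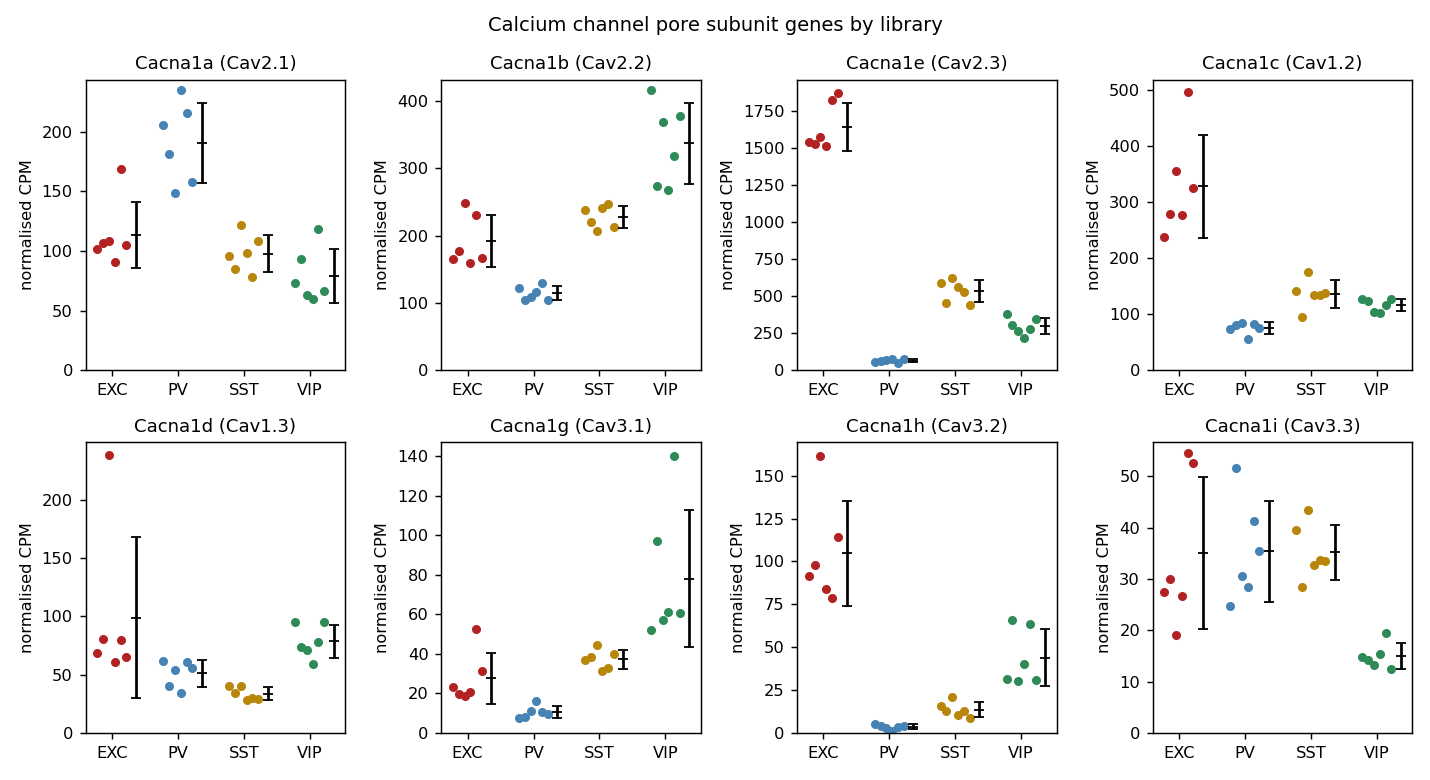
Level of each pore subunit gene in normalised CPM (vertical axes, linear from 0, scaled per gene) in the 6 libraries of each subtype (points), with the mean and SD in black. Cacna1e lies at 1513 CPM or more in every EXC library and at 78.3 or less in every PV library, and Cacna1a is highest in PV.

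Cacna1e, which encodes the R-type channel Cav2.3 (NCBI Gene 12290, GRCm38 chromosome 1, 154390806 to 154884785), was highest in EXC and lowest in PV, and had 124367 reads over all libraries. EXC libraries ran from 1513 to 1872 CPM with a median of 1561. SST libraries ran from 439 to 625 with a median of 546. VIP libraries ran from 219 to 377 with a median of 291. PV libraries ran from 51.6 to 78.3 with a median of 63.3. No library of any subtype overlapped another subtype, so the order EXC, SST, VIP, PV held in every library. Group means were 1644 ± 161 in EXC, 533 ± 74.6 in SST, 298 ± 56.8 in VIP and 64.7 ± 10.6 in PV (SD, n = 6 each), which puts the PV mean at 0.0393 of the EXC mean. The change from EXC was -4.65 ± 0.16 in PV (adjusted p = 1.9e-17), -2.43 ± 0.15 in VIP (4.57e-13) and -1.62 ± 0.14 in SST (6.82e-10). SST and VIP, next to each other in the order, differed by 0.80 ± 0.14 (9.13e-05). PV also lay below SST, at -3.03 ± 0.15 (1.3e-13), and below VIP, at -2.23 ± 0.15 (3.67e-12). Within POOL6188, the pool that holds both PV and EXC, the change was -4.67 ± 0.15.

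Cacna1a, which encodes the P/Q-type channel Cav2.1 (NCBI Gene 12286, chromosome 8, 84338631 to 84640251), ran the other way, with PV at the top. PV libraries ran from 148 to 234 CPM with a median of 193. In EXC they ran from 90.7 to 169 (median 105), in SST from 77.7 to 122 (median 97.0) and in VIP from 59.5 to 118 (median 69.5). All PV libraries lay above all SST and VIP libraries, and 5 of the 6 EXC libraries lay below all PV libraries, the exception being EXC replicate 5 at 169 CPM. Means were 190 ± 33.8 in PV, 113 ± 27.9 in EXC, 97.7 ± 15.8 in SST and 78.9 ± 22.8 in VIP. PV was higher than VIP by 1.25 ± 0.18 (adjusted p = 2.56e-06), than SST by 0.99 ± 0.18 (0.0001) and than EXC by 0.78 ± 0.18 (0.00068). Cacna1a was the only member called higher in PV than in EXC. EXC and SST did not differ beyond their spread (SST against EXC -0.20 ± 0.17, adjusted p = 0.369, 95% interval -0.56 to 0.15), nor did SST and VIP (0.26 ± 0.18, adjusted p = 0.265). VIP was below EXC by a small margin (-0.47 ± 0.18, adjusted p = 0.0371) that was lost under 17 of 34 other settings, among them leaving out EXC replicate 5 (adjusted p = 0.152). Adding the pool to the model took the PV differences from SST and VIP out of the calls, at 0.40 (adjusted p = 0.546) and 0.96 (0.0648).

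Cacna1b, which encodes the N-type channel Cav2.2 (NCBI Gene 12287, chromosome 2, 24603860 to 24763200), was highest in VIP and lowest in PV. VIP libraries ran from 268 to 416 CPM (median 344), SST from 207 to 247 (median 229), EXC from 160 to 249 (median 173) and PV from 104 to 130 (median 113). Both VIP and PV were clear of every library of the other subtypes, while EXC and SST overlapped. The means were 337 ± 60.2, 228 ± 16.6, 192 ± 38.3 and 115 ± 10.3 CPM in the same order. VIP was above EXC by 0.85 ± 0.14 (adjusted p = 1.64e-05), and SST was below VIP (-0.60 ± 0.14, adjusted p = 0.00152). PV was below EXC (-0.72 ± 0.14, adjusted p = 0.000117), SST (-0.97 ± 0.14, 4.6e-06) and VIP (-1.57 ± 0.14, 8.1e-10). SST against EXC did not pass (0.25 ± 0.13, adjusted p = 0.138) and passed when EXC replicate 3 was left out (0.38, adjusted p = 0.0228). With the pool in the model, PV against SST (-0.18, adjusted p = 0.727) and VIP against EXC (0.35, adjusted p = 0.318) were no longer called, and PV against VIP moved to -0.99 (0.0155). Cacna1a and Cacna1b, the genes of the P/Q and N types, were thus at opposite ends in PV and VIP: their levels ran against each other over the 24 libraries (Pearson r = -0.784 on log2 CPM, a description over libraries that share subtypes and pools).

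The L-type genes had unlike patterns. Cacna1c, which encodes Cav1.2 (NCBI Gene 12288, chromosome 6, 118587240 to 119197384), was highest in EXC, where libraries ran from 237 to 497 CPM with a median of 303. SST libraries ran from 95.1 to 175 (median 136), VIP from 102 to 128 (median 120) and PV from 56.6 to 84.3 (median 77.6). EXC lay above and PV below every other library, and SST and VIP overlapped. Means were 329 ± 92.2 in EXC, 136 ± 25.5 in SST, 117 ± 11.5 in VIP and 75.4 ± 10.2 in PV. The change from EXC was -2.10 ± 0.17 in PV (adjusted p = 1.4e-10), -1.46 ± 0.17 in VIP (7.77e-08) and -1.26 ± 0.16 in SST (6.04e-07). PV was below SST (-0.84 ± 0.17, 0.000374) and VIP (-0.64 ± 0.16, 0.00249), and SST and VIP did not differ beyond their spread (0.20 ± 0.16, 0.38). With the pool as a covariate the differences between PV and SST (adjusted p = 0.199) and between PV and VIP (0.349) did not pass, and those from EXC did. The gene overlaps Dcp1b on the opposite strand with no exon base in common. It also overlaps the long noncoding gene 4931430N09Rik (1238 reads against 30153), for which shared exon bases were not determined.

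Cacna1d, which encodes Cav1.3 (NCBI Gene 12289, chromosome 14, 30039941 to 30491156), was lowest in SST and, among EXC libraries, depended on 1 library. SST libraries ran from 28.2 to 40.7 CPM (median 32.1) and PV libraries from 34.0 to 62.0 (median 55.0). VIP ran from 59.0 to 95.2 (median 75.8) and EXC from 61.0 to 239 (median 74.0). SST overlapped only PV, and PV overlapped VIP and EXC by a few CPM. EXC replicate 3 was at 239 CPM, and the other 5 EXC libraries at 61.0 to 80.7, so the EXC mean was 99.0 ± 68.9 with it and 71.0 ± 8.68 without it (n = 5). SST was below EXC (-1.55 ± 0.26, adjusted p = 3.05e-05) and VIP (-1.30 ± 0.27, 0.00053), and both calls held when each library in turn was left out. With the pool in the model SST against EXC moved to -2.91 (adjusted p = 4.05e-06). PV was below EXC by -0.90 ± 0.27 (0.00798), and by -0.50 ± 0.17 (0.0207) within POOL6188, which lacks that library, and by -0.48 (0.0272) with the pool in the model. VIP and EXC did not differ beyond their spread (-0.25 ± 0.26, adjusted p = 0.477), and the sign turned without EXC replicate 3 (0.20, adjusted p = 0.33). PV against SST did not pass (0.65 ± 0.27, adjusted p = 0.0731) but passed without EXC replicate 3 (0.59, 0.0071), which enters the shared estimate of spread, and without PV replicate 4 (0.78, 0.0401). PV against VIP passed narrowly (-0.64 ± 0.26, adjusted p = 0.0448), was lost under 9 settings, among them leaving out PV replicate 4 (0.109), and turned to 1.15 (0.0252) with the pool in the model. PV against SST (2.43, adjusted p = 0.000184) and VIP against EXC (-1.62, 0.00023) were called in that fit. It links POOL6188 to the other pools only through EXC replicate 3, the sole EXC library outside POOL6188. Malat1, a long noncoding RNA kept in the nucleus, was the gene most like Cacna1d and was also highest in EXC replicate 3, at 64620 CPM against 5362 to 19800 in the other EXC libraries. Its part in the Cacna1d level was not tested. The exons of Cacna1d share 589 bases with Chdh on the opposite strand, which had 777 reads in all against 10172 for Cacna1d.

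The T-type genes differed in where they were highest: Cacna1h in EXC, Cacna1g in VIP, and Cacna1i in every subtype but VIP. Cacna1h, which encodes Cav3.2 (NCBI Gene 58226, chromosome 17, 25374285 to 25436334), ran from 78.9 to 161 CPM in EXC with a median of 94.8. VIP libraries ran from 30.4 to 66.0 (median 35.9), SST from 8.87 to 20.8 (median 12.8) and PV from 1.11 to 5.23 (median 3.75). No subtype overlapped another. PV held 45 reads of the gene in all 6 libraries together, at 3 or more per library, so its level there has a large counting error. Means were 105 ± 30.4, 43.8 ± 16.7, 13.5 ± 4.20 and 3.51 ± 1.43 CPM in EXC, VIP, SST and PV. The change from EXC was -4.93 ± 0.32 in PV (adjusted p = 1.52e-12), -2.97 ± 0.25 in SST (5.85e-10) and -1.16 ± 0.25 in VIP (0.000445). SST was below VIP (-1.82 ± 0.26, 4.05e-06), and PV was below SST (-1.95 ± 0.32, 3.1e-05) and VIP (-3.77 ± 0.31, 2.77e-10). Between SST and VIP, Cacna1h was thus lower in SST, where Cacna1e was higher. Tpsg1, on the opposite strand, shares 158 exon bases with Cacna1h and had 218 reads against 7013.

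Cacna1g, which encodes Cav3.1 (NCBI Gene 12291, chromosome 11, 94408391 to 94474400), was highest in VIP, at 52.1 to 140 CPM with a median of 60.9. SST ran from 31.4 to 44.5 (median 37.8), EXC from 18.8 to 52.5 (median 21.9) and PV from 7.47 to 16.3 (median 10.2). PV lay below every other library, and VIP overlapped EXC only through EXC replicate 5 at 52.5. Means were 78.1 ± 34.5 in VIP, 37.4 ± 4.79 in SST, 27.7 ± 12.9 in EXC and 10.5 ± 3.16 in PV. VIP was above EXC by 1.59 ± 0.26 (adjusted p = 1.36e-05), SST was below VIP (-1.15 ± 0.25, 0.000922), and PV was below VIP (-2.90 ± 0.28, 4.06e-09), SST (-1.75 ± 0.27, 1.9e-05) and EXC (-1.31 ± 0.28, 0.000357). SST against EXC did not pass (0.44 ± 0.24, adjusted p = 0.154) and passed when EXC replicate 5 was left out (0.73, 0.0116) or the pool was in the model (1.93, 0.0108). The pool also moved PV against SST to -3.31 (adjusted p = 0.000611) and VIP against EXC to 2.50 (0.00065). The VIP libraries were uneven: replicates 2 and 5, both in POOL7099, were at 97.1 and 140 CPM and the other 4 at 52.1 to 61.2. The same replicates had the highest Cacna1h of the VIP libraries (66.0 and 63.7 CPM) and the highest Cacna1a (93.0 and 118). Their sums of excitatory markers were also the highest in VIP, at 918 and 799 CPM against 331 to 564, and their mitochondrial shares were 14.6% and 16.6% against 1.80% to 14.2%. The part of these in the Cacna1g levels was not tested. Within POOL7098, which holds neither of these libraries, SST was not called below VIP (-0.44 ± 0.20, adjusted p = 0.0865), and the pool as a covariate also ended that call (-0.571, adjusted p = 0.152).

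Cacna1i, which encodes Cav3.3 (NCBI Gene 239556, chromosome 15, 80287238 to 80398292), was the most even member across EXC, PV and SST. The medians were 28.7 CPM in EXC (19.0 to 54.5), 33.0 in PV (24.7 to 51.5) and 33.6 in SST (28.4 to 43.4), and the libraries of these 3 subtypes overlapped throughout. Means were 35.0 ± 14.8, 35.3 ± 9.81 and 35.2 ± 5.36 CPM. VIP was lower, at 12.5 to 19.5 with a median of 14.5 and a mean of 14.9 ± 2.48, and overlapped only EXC. VIP was below EXC (-1.16 ± 0.23, adjusted p = 0.000201), and PV and SST were above VIP by 1.22 ± 0.23 (0.000108) and 1.17 ± 0.23 (0.000279). PV against EXC was 0.06 ± 0.23 (adjusted p = 0.843), with a 95% interval of -0.40 to 0.53. The intervals of SST against EXC (-0.43 to 0.46) and of PV against SST (-0.41 to 0.51) were of similar width. With the pool in the model, neither VIP against EXC (-0.115, adjusted p = 0.874) nor PV against VIP (0.061, 0.953) was called. Cacna1i was thus lowest in the subtype where Cacna1g was highest.

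**Figure D2:**
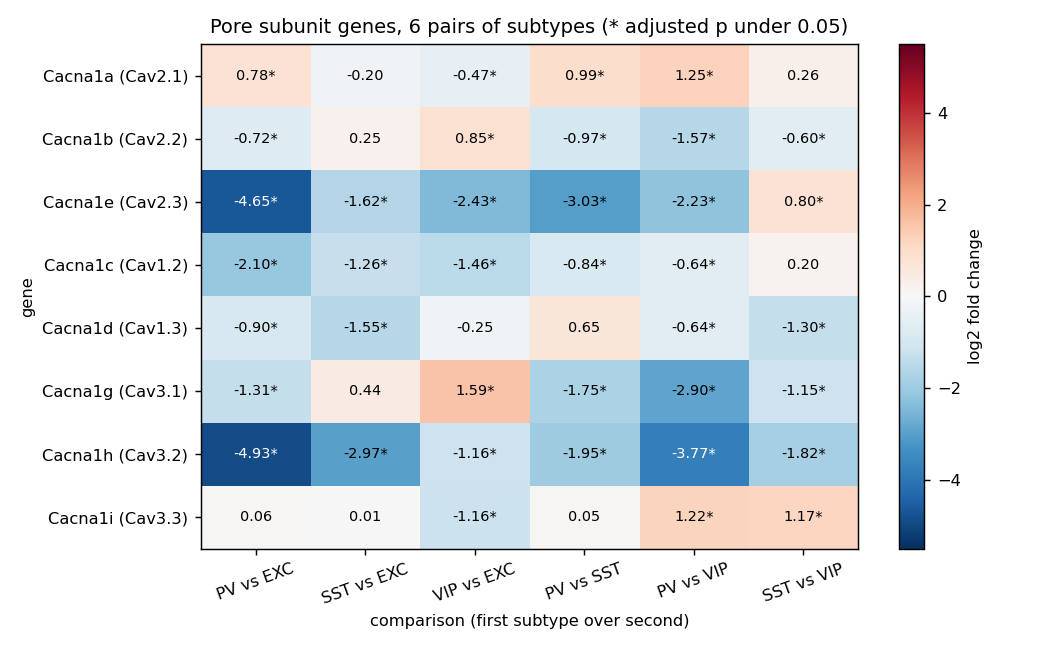
Log2 fold change of each pore subunit gene (rows) in the 6 pairs of subtypes (columns, first-named subtype over the second), with an asterisk where edgeR's adjusted p was under 0.05. The deepest changes are those of Cacna1h (-4.93) and Cacna1e (-4.65) between PV and EXC, and Cacna1i is near 0 in the 3 pairs without VIP.

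Members can be compared with each other only per length, for which CPM was divided by the kilobases of annotated exon of each gene. On this scale the 8 transcripts together stood at 135 ± 18.9 CPM per kilobase in EXC, 78.1 ± 9.45 in VIP, 70.4 ± 5.91 in SST and 43.4 ± 3.33 in PV. Cacna1e made up 48.8% ± 4.68 of that sum in EXC, 29.9% ± 1.93 in SST, 15.1% ± 1.78 in VIP and 5.98% ± 1.27 in PV. Cacna1a made up 38.3% ± 4.48 in PV and 7.33% to 12.2% on average in the other subtypes. Cacna1b made up 43.5% ± 6.13 in VIP, 32.8% ± 3.39 in SST, 26.6% ± 1.10 in PV and 14.3% ± 1.42 in EXC. These shares depend on the length used. By the authors' RPKM values Cacna1b made up 36.6%, 26.6%, 20.3% and 11.1% in the same order, and Cacna1a 44.5% in PV. The leading transcript per length was thus Cacna1e in EXC, Cacna1a in PV and Cacna1b in VIP. In SST, Cacna1b (22.9 ± 1.67 CPM per kilobase) and Cacna1e (21.1 ± 2.96) lay within their spread of each other, and Cacna1e led where the authors' RPKM values were used (13.5 ± 1.98 against 11.1 ± 0.900).

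Among the branches, Cav2 genes together had the largest share in every subtype, with 70.4% ± 3.71 (EXC), 70.8% ± 4.01 (PV), 74.9% ± 2.05 (SST) and 67.4% ± 5.22 (VIP) of the sum per length. Cav1 genes held 17.0% ± 3.47, 17.6% ± 3.20, 12.9% ± 1.12 and 15.04% ± 1.13 in the same order. Cav3 genes held 12.6% ± 1.02, 11.5% ± 2.29, 12.3% ± 1.15 and 17.6% ± 5.86. The highest Cav3 shares were those of VIP replicates 2 and 5, which reached 25.6%. The shares were not tested. On the RPKM scale the Cav1 share was 14.1% in SST and 17.3% in VIP. The lowest place per length fell to Cacna1g in EXC (2.73 ± 1.28 CPM per kilobase), to Cacna1h in PV (0.360 ± 0.146) and SST (1.39 ± 0.431), and to Cacna1i in VIP (1.52 ± 0.251).

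**Figure D3:**
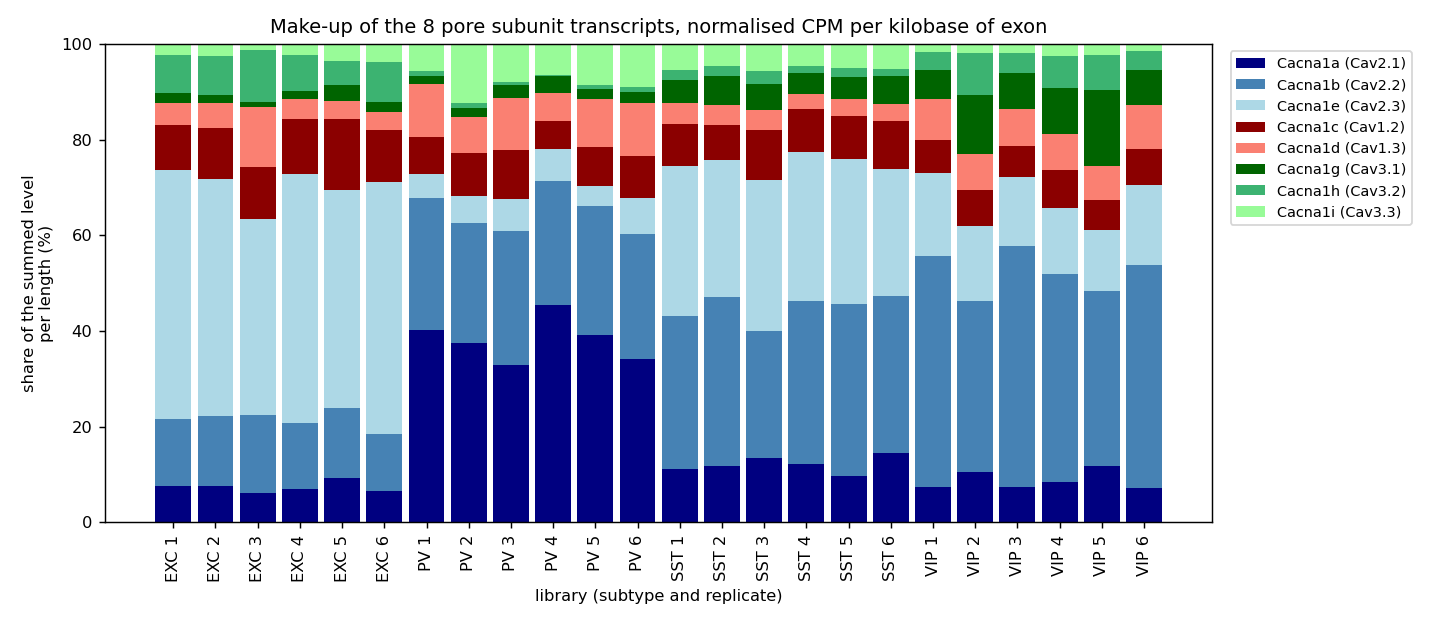
Share of each gene in the summed level of the 8 pore subunit transcripts per kilobase of exon (vertical axis, percent), 1 bar per library, with Cav2 genes in blue, Cav1 genes in red and Cav3 genes in green. Cacna1e fills 40.8% to 52.7% of each EXC bar and Cacna1a 33.0% to 45.4% of each PV bar, while the blue total stays between 61.1% and 77.9% in all 24 libraries.

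The remaining pore genes of the family had few reads. Cacna1s, the pore subunit of skeletal muscle, had 35 reads in all 24 libraries and Cacna1f, that of the retina, had 93, and neither passed the filter on low counts. Nalcn, a related sodium leak channel, had means of 119 ± 12.9 CPM (EXC), 132 ± 9.08 (PV), 196 ± 33.2 (SST) and 198 ± 25.8 (VIP). It was higher in SST (0.73 ± 0.13, adjusted p = 5.31e-05) and VIP (0.74 ± 0.13, 5.05e-05) than in EXC.

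The sequencing pool differs between most subtypes, so the members were also compared within pools. Within POOL6188, PV against EXC gave 1 member higher and 6 lower, beside 21.8% and 23.9% of 12447 genes tested, with Cacna1a again higher (0.77 ± 0.16) and Cacna1i again not called. Within POOL7098, which holds 5 SST and only 2 VIP libraries, SST against VIP gave 3 higher and 3 lower, beside 20.6% and 21.2% of 16449 genes. Cacna1a was called higher in SST there (0.67 ± 0.21, adjusted p = 0.0193), which it was not over all libraries, and Cacna1g was not called. Cacna1e (0.81 ± 0.22), Cacna1i (1.41 ± 0.24), Cacna1b (-0.73 ± 0.18), Cacna1d (-1.24 ± 0.18) and Cacna1h (-1.22 ± 0.25) kept their direction and call. In POOL7099, EXC replicate 3 was at 1577 CPM of Cacna1e and the 4 VIP libraries at 219 to 346. It also lay above them for Cacna1c (356 against 102 to 128), Cacna1h (161 against 31.0 to 66.0) and Cacna1d (239 against 59.0 to 94.9). It lay below them for Cacna1b (249 against 268 to 378) and Cacna1g (18.8 against 60.6 to 140). For Cacna1a (108, VIP 59.5 to 118) and Cacna1i (19.0, VIP 12.5 to 19.5) it lay within the VIP range, though both were called lower in VIP over all libraries. PV shares no pool with SST or VIP, and SST shares none with EXC, so in these 3 pairs the pool and the subtype cannot be told apart within a pool. A fit with the pool as a covariate links POOL6188 to the other pools only through EXC replicate 3. For the pairs with SST it also relies on the VIP libraries, which link POOL7098 to POOL7099.

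**Figure D4:**
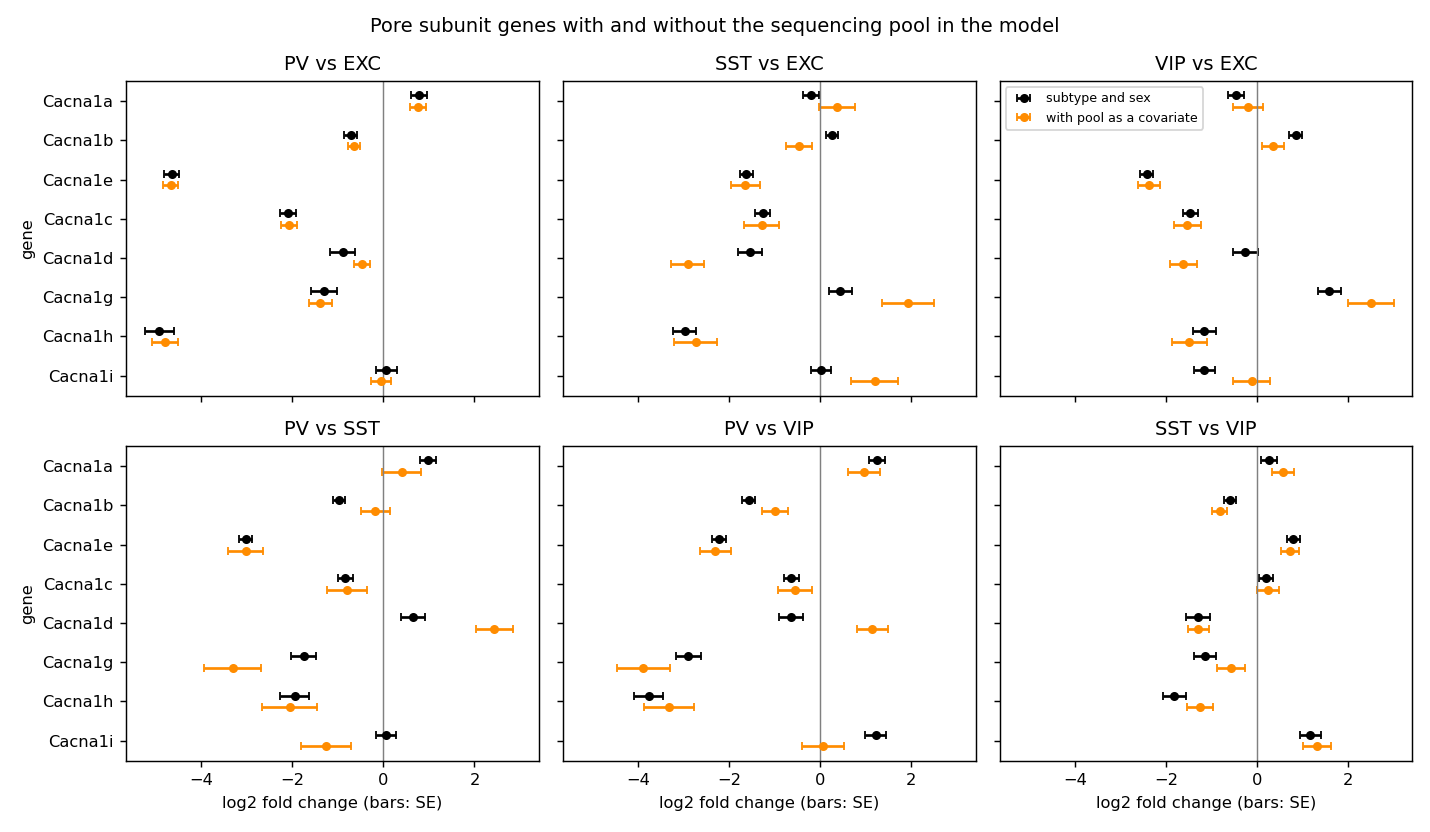
Log2 fold change with SE (horizontal axes) of each pore subunit gene in the 6 pairs of subtypes, from the model with subtype and sex (black) and with the pool added (orange). The values for PV against EXC nearly coincide except for Cacna1d, which goes from -0.90 to -0.48. Over the 6 pairs Cacna1d moves furthest, from -0.64 to 1.15 in PV against VIP.

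Cacna1e and Cacna1h were called in the same direction in all 6 pairs under all 34 settings tried, with highest adjusted p-values of 0.00824 and 0.0152. Sex moved no member past the threshold. All 8 fitted changes of female against male were below 0, from -0.30 (Cacna1g) to -0.09 (Cacna1c). The median over all genes tested was also below 0, at -0.015, and the members were measured in the same libraries. Of the 8 members, 0 were called by edgeR (adjusted p = 0.99981 for each, unadjusted p from 0.118 to 0.477) and 0 by DESeq2. Of all genes tested, 0.0403% were called for sex, which is 6 genes, and 392 had an unadjusted p under 0.05. In the test of whether the sex difference varies between subtypes, 0 members and 0% of all genes were called by edgeR, with 0 members and 319 genes at an unadjusted p under 0.05.

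Cav1 and Cav2 channels assemble with alpha2-delta and beta subunits, and the genes of these subunits were also divided by subtype. All 8 were tested. In PV against EXC 2 were higher and 5 lower, beside 20.3% and 25.6% of all genes tested. In SST against EXC these were 3 and 3, beside 17.1% and 21.3%, and in VIP against EXC 3 and 3, beside 18.4% and 20.7%. Against SST, PV had 1 higher and 5 lower, beside 11.4% and 14.9% of all genes, and against VIP 2 and 3, beside 21.9% and 26.7%. SST had 4 higher and 1 lower than VIP, beside 14.6% and 16.7%. The alpha2-delta genes Cacna2d1 and Cacna2d2 ran in opposite directions between EXC and PV. Cacna2d1 stood at 467 ± 59.3 CPM in EXC, 164 ± 28.1 in VIP, 121 ± 22.4 in SST and 11.9 ± 6.30 in PV. Cacna2d2 stood at 247 ± 26.8 CPM in PV, 161 ± 16.6 in SST, 15.5 ± 5.72 in VIP and 10.3 ± 4.30 in EXC. PV against EXC was thus -5.44 ± 0.28 for Cacna2d1 (adjusted p = 2.5e-14) and 4.60 ± 0.24 for Cacna2d2 (5.59e-14). Cacna2d3 was at 125 ± 10.7 CPM in SST and 102 ± 5.66 in VIP, above EXC (41.3 ± 10.2) and PV (7.09 ± 2.73). Among the beta genes Cacnb4 differed least, by at most 0.63 ± 0.15 (SST over VIP, adjusted p = 0.00203), with group means of 414 to 649 CPM.

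**Figure D5:**
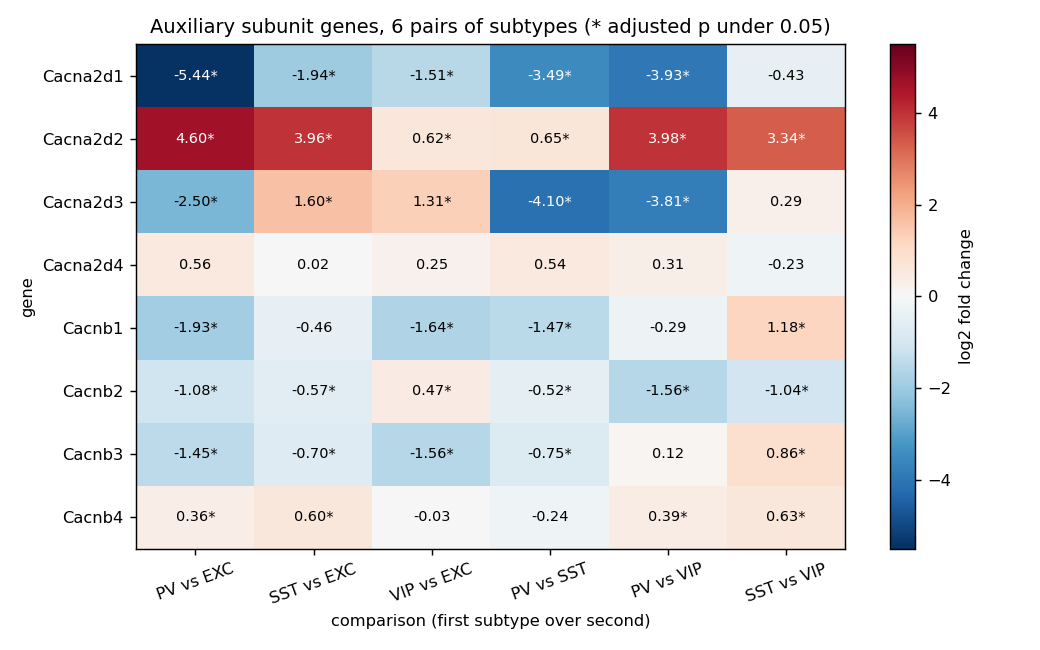
Log2 fold change of each auxiliary subunit gene (rows) in the 6 pairs of subtypes (columns, first-named subtype over the second), with an asterisk where edgeR's adjusted p was under 0.05. Cacna2d1 and Cacna2d2 have opposite signs in PV against EXC, at -5.44 and 4.60, and Cacna2d4 has no asterisk.

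Of 15 genes for channel regulators and release-site partners, 13 were tested. PV against EXC gave 4 higher and 8 lower, beside 20.3% and 25.6% of all genes tested. SST against EXC gave 4 and 4, beside 17.1% and 21.3%, and VIP against EXC 2 and 6, beside 18.4% and 20.7%. PV against SST gave 2 and 6, beside 11.4% and 14.9%. PV against VIP gave 6 and 3, beside 21.9% and 26.7%, and SST against VIP 5 and 1, beside 14.6% and 16.7%. Stac2, an adaptor that binds L-type channels, was at 137 ± 43.4 CPM in PV against 23.5 ± 8.66 in EXC (2.56 ± 0.32, adjusted p = 3.05e-07), where Cacna1c ran the other way. Erc2, a release-site scaffold, was at 516 ± 152 CPM in EXC and 94.1 ± 7.53 in PV (-2.43 ± 0.16, 1.88e-12). Akap5, an anchor for kinases at L-type channels, was at 415 ± 81.8 CPM in SST and 54.6 ± 8.78 in VIP (2.97 ± 0.16, 7.16e-14). Rimbp2, which links Cav2 channels to release sites, was at 125 ± 18.2 CPM in EXC and 29.2 to 47.9 on average in the other subtypes.

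The genes whose log2 CPM followed a member most closely over the 24 libraries, out of 9262 ranked by Pearson r, are given as a description, since the libraries share subtypes and pools. Cacna1e was most like Trpm3 (r = 0.980), Enc1 (0.974) and Celf1 (0.970), all highest in EXC. Cacna1b was most like Lrch2 (0.961), Synpr (0.954) and Fndc3a (0.950), all highest in VIP. Cacna1c was most like Clmn (0.957), Mfap3 (0.950) and Ptk2 (0.949). For Cacna1h these were Dock10 (0.946), Fat4 (0.945) and Dab1 (0.943), and for Cacna1g Wnt7a (0.947), Sorcs1 (0.916) and Cacng5 (0.914). Cacna1a had weaker neighbours, Atxn7l3 (0.907) and Inpp5j (0.903), as had Cacna1d with Malat1 (0.909), Nin (0.897) and Lrrtm4 (0.886). Cacna1i had the weakest, Tenm4 (0.884), Rgs4 (0.880) and Mpped2 (0.876). Between members the closest were Cacna1c and Cacna1e (r = 0.917), followed by Cacna1b and Cacna1g (0.864), Cacna1e and Cacna1h (0.839) and Cacna1c and Cacna1h (0.825).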

How the data were processed

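RNA of sorted neurons was measured by bulk RNA-seq in 24 libraries, grouped by the subtype in the labels. Reads were aligned with GSNAP to GRCm38, per the submitters' processing notes. The authors deposited counts of reads that map uniquely to a gene, and RPKM values adjusted by size factors, per the file headers. With the counting program, strand setting and annotation not given in the sources used here, reads of overlapping genes cannot be told apart. The long noncoding genes Gm32854 (1438 reads), Gm35566 (203), Gm33617 (99) and Gm31319 (10) overlap Cacna1a, Cacna1d, Cacna1h and Cacna1i in that order. Their shared exon bases were not determined. Counts were used for all tests and the deposited RPKM values only as a second scale for levels between genes. Gene numbers were matched to RefSeq symbols (31049 of 36528).

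Genes were filtered with filterByExpr, scaled by TMM, and fitted with subtype and sex in edgeR 4.0.16 (R 4.3.3). Quasi-likelihood F tests used the Benjamini-Hochberg adjustment over all genes, and a gene was called at an adjusted p under 0.05. The SE is taken from the change and its F statistic. DESeq2 1.42.0 was an alternative, beside other size factors and filters, the pool as a covariate, no sex term, 2 groups only, and each library left out in turn. The script was tested on simulated counts. Replicates are numbered in order of deposition. The precision of a level depends on the reads of the gene and on the spread between libraries. Counting error was largest in PV, where each member had its fewest reads. Per length, CPM were divided by the GENCODE M21 exon union. The genes named are the 8 members, and at most 4 of each fixed list in the text. Of the auxiliary and partner genes, those named were not always the ones with the largest change. Also named are the 3 genes most like each member among named genes with a mean of at least 10 CPM. Of these, 1 is not reported here. The members and lists were chosen with earlier results of these data known.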

Additional observations from a re-analysis of the deposited data

Results flagged for a closer look

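In 32 groups of 6 libraries (8 genes in 4 subtypes), the gap between an extreme library and its neighbour was compared with the range of its group, and 3 passed Dixon's 95% limit of 0.625. Chance alone passes about 1 group in 20. Cacna1d was at 238.79 CPM in EXC replicate 3, with the other EXC libraries at 61.0 to 80.7 (gap over range 0.889). Cacna1a was at 168.72 CPM in EXC replicate 5, with the others at 90.7 to 108 (0.777). Cacna1g was at 52.494 CPM in the same library, with the others at 18.8 to 31.3 (0.630).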

How the results depend on the processing

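Of the member tests recomputed under 34 other settings, 1842 kept their direction and their side of the threshold, 35 lost a call, 8 gained one and 19 changed sign. These totals include the tests of sex, never called, and many settings that leave out only 1 library. The pool as a covariate changed the most: 38 tests were kept, 10 lost a call, 3 gained one and 5 changed sign. Signs changed mostly for Cacna1i, whose changes lay near 0. PV against EXC went to -0.053 with the pool as a covariate, -0.061 without PV replicate 2, -0.038 without EXC replicate 3 and -0.011 without PV replicate 5. SST against EXC went to -0.022 with DESeq2, -0.021 with its size factors, -0.031 with at least 5 CPM in 6 libraries, and -0.002, -0.078 and -0.034 without EXC replicates 1, 3 and 4. PV against SST went to -0.034 with no filter, -1.254 with the pool, -0.067 and -0.035 without PV replicates 2 and 5, and -0.026 without SST replicate 2. With the pool as a covariate, Cacna1a and Cacna1b in SST against EXC went to 0.366 and -0.467, and Cacna1d in PV against VIP to 1.147. Cacna1d in VIP against EXC went to 0.200 without EXC replicate 3. With each library left out in turn, Cacna1i ran from -0.061 to 0.226 (PV against EXC), -0.078 to 0.201 (SST against EXC) and -0.067 to 0.165 (PV against SST), and Cacna1d from -0.324 to 0.200 (VIP against EXC). The causes were not tested.

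With the pool in the model the genes called numbered 3714 in VIP against EXC (5821 without it) and 2341 in PV against VIP (7242). The median of all genes then shifted by 0.199 in SST against EXC, 0.138 in VIP against EXC, -0.211 in PV against SST and -0.158 in PV against VIP, and the share of calls that were higher went from 44.6% to 54.9% in SST against EXC and from 45.1% to 32.6% in PV against VIP. With RPKM the Cav1 share was 14.1% in SST (12.9% per exon length) and 17.3% in VIP (15.04%). The Cacna1a and Cacna1b shares moved by more than their SD in every subtype, Cacna1b in VIP from 43.5% to 36.6%. So did those of Cacna1c in VIP, Cacna1d in SST and VIP, and Cacna1e in SST. With each library left out in turn, genes called ran from 6208 to 7061 (PV against EXC), 5047 to 5947 (SST against EXC), 5102 to 7291 (VIP against EXC), 3400 to 4748 (PV against SST), 6447 to 7896 (PV against VIP), 3550 to 5484 (SST against VIP) and 6 to 7 (sex). No paired analysis was possible because the labels give no replicate numbers. Depth limits Cacna1h in PV most, at 45 reads over 6 libraries.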
